A study of Mus musculus with 6 samples.

Results

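The mouse collagen genes were examined in whole testes of WT and Tardbp conditional knockout (cKO) mice. Members were all genes that the authors marked as kept and whose symbol reads Col, a number, a and a number. The symbols do not depend on levels, but the kept mark is itself a filter of the authors on low counts. The count table held 44 such genes among 39253, and 42 of them were kept, among 16911 kept genes in all. Of the 42, 11 code for fibrillar collagens, 6 for the chains of basement membrane collagen IV (Col4a1 to Col4a6) and 25 for other collagens. The 2 that were not kept were Col10a1, with 0 counts in every library but cKO 1 (0.968 counts), and Col19a1, with at most 12.1 counts in a library. All 42 kept collagens passed the filter on low counts used here (0.5 CPM in at least 3 libraries) and were tested.

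Testes were taken on postnatal day 12 (PND12) from 3 WT and 3 cKO mice, all labelled C57BL/6, and each mouse gave 1 poly(A) RNA library. In the cKO mice, Cre recombinase under the Stra8 promoter deletes exon 3 of a floxed Tardbp allele in germ cells from the spermatogonia onward, and the other Tardbp allele is null in every cell. Tardbp codes for the RNA-binding protein TDP-43. The WT mice carried neither the altered Tardbp alleles nor Cre as far as the labels say, so the comparison is of the whole cKO genotype with WT. Libraries held 30028685 to 43371284 estimated counts. By the labels, all WT libraries and cKO 1 belong to batch 2, whereas cKO 2 and cKO 3 belong to batch 1, which has no WT library. Genotype and batch therefore cannot be told apart for cKO 2 and cKO 3. Tests across genes were run with a batch term, in which the genotype difference rests on cKO 1 against the 3 WT libraries, and again without it.

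Collagens are secreted or membrane-bound proteins with chains wound into a helix, and they build the matrix between cells. Fibrillar collagens form the fibrils of connective tissue, collagen IV forms the sheet-like network of basement membranes, and the other families sit on fibrils, link fibrils to basement membranes, form beaded filaments or span the plasma membrane. In the testis the seminiferous tubule is wrapped by a basement membrane laid down by Sertoli cells and peritubular myoid cells, outside which lie layers of fibrillar collagen and the interstitium with its fibroblast-like, vascular, immune and Leydig cells.

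Levels are given as CPM, the counts of a gene scaled to a common library total, in the order of the library numbers 1 to 3. Tardbp itself, the check of the labels, was at 319, 334 and 313 CPM in WT and at 256, 112 and 137 CPM in the cKO libraries. All 3 cKO libraries were below all 3 WT libraries, and cKO 1 was the closest to WT. The log2 fold change was -0.33 ± 0.12 (SE; adjusted p = 0.107) with the batch term and -0.94 ± 0.29 (adjusted p = 0.0416) without it. These counts are of the whole gene in the whole testis, whereas Cre deletes exon 3 of the floxed allele in germ cells and somatic cells keep that allele, so they check the labels in part.

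Collagen RNA made up a larger share of the cKO libraries. The 42 kept genes took 0.532%, 0.853% and 0.90% of the counts of the WT libraries and 1.26%, 1.19% and 1.65% of those of the cKO libraries. Collagen shares of cKO and WT did not overlap, and WT 1 was the lowest library. Both these shares and CPM are relative to the other RNA of a library. In RNA of a whole testis a larger proportion of collagen-making cells and more collagen RNA per cell cannot be told apart.

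Of the 42 collagens, 10 were higher in cKO at an adjusted p of 0.05 with the batch term and 1 was lower, where 6.91% of all 16632 tested genes passed as higher and 9.24% as lower (edgeR quasi-likelihood test, Benjamini-Hochberg adjusted over all tested genes). Without the batch term 19 were higher and 1 was lower, beside 17.1% and 16.7% of all tested genes. The log2 fold change was above 0 in 38 of 42 collagens with the batch term and in 37 without it. Its median over the 42 was 0.82 with the batch term and 0.79 without it, where the medians over all tested genes were 0.01 and 0.04. In 23 collagens all 3 cKO libraries were above all 3 WT libraries and in 2 all were below, beside 25.7% and 27.1% of all tested genes. Single cKO libraries were above all WT libraries in 36 collagens (cKO 1), 27 collagens (cKO 2) and 34 collagens (cKO 3), beside 39.9%, 43% and 44.9% of all tested genes. The plot of collagen levels by library shows these positions gene by gene.

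**Figure D1:**
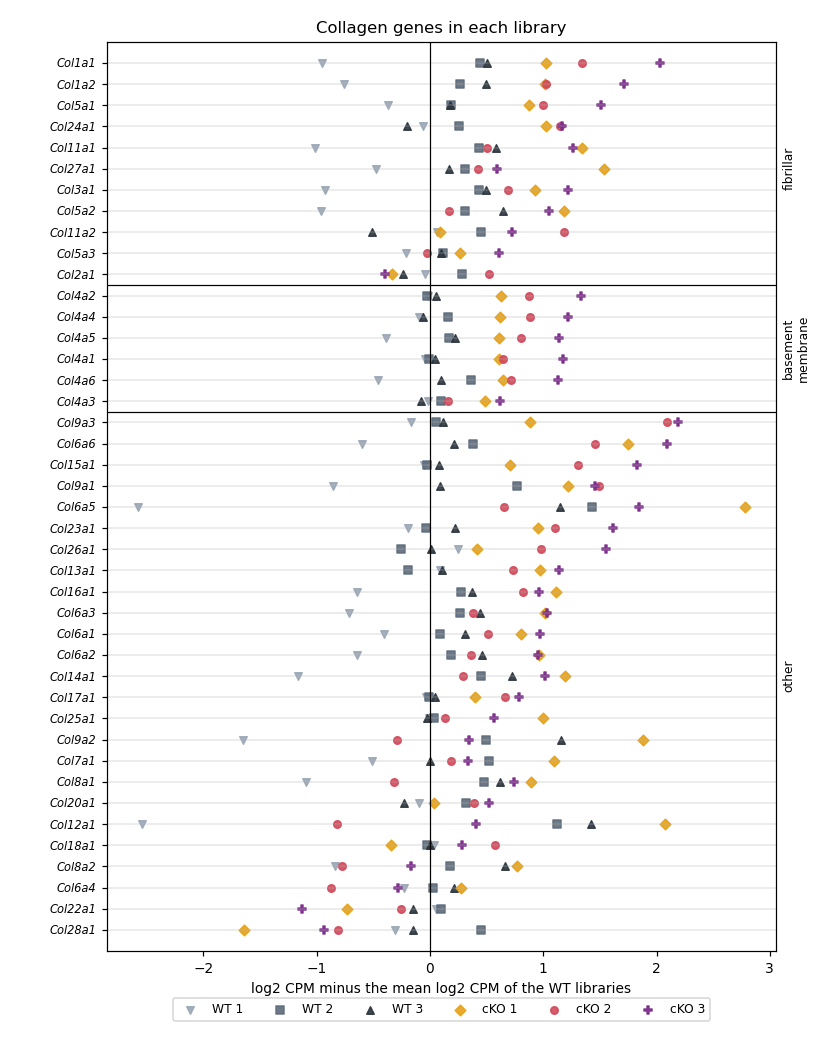
Level of each of the 42 collagen genes in each library, as log2 CPM minus the mean log2 CPM of the 3 WT libraries, with the genes grouped as fibrillar, basement membrane and other. Points to the right of 0 are above the WT mean. WT 1 lies to the left of the other WT libraries for many genes, and the 3 cKO libraries lie to the right of all WT libraries in 23 genes.

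The WT libraries were not alike in collagen. WT 1 had the lowest of the 3 WT values in 31 of 42 collagens (73.8%), against 35.3% of all tested genes. In 17 of 42 collagens (40.5%) both other WT libraries were more than 1.5 times WT 1, which held in 2.78% of all tested genes. Col6a5, a beaded filament collagen, was at 1.40 CPM in WT 1 and at 22.6 and 18.6 CPM in WT 2 and WT 3, and Col12a1, which coats collagen fibrils, was at 1.61 against 20.3 and 25.1 CPM. Basement membrane collagens were not among the 17 genes. No label sets WT 1 apart from WT 2 and WT 3.

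All 11 collagen calls with the batch term, and all 20 without it, were lost in at least 1 fit that left out a WT library. Calls over all tested genes fell as well, from 1150 higher to 7 when WT 2 was left out with the batch term. Without WT 1, 5 collagens were higher with the batch term (Col6a6, Col9a3, Col13a1, Col16a1 and Col27a1), beside 1.97% of all tested genes, and 23 were higher at an unadjusted p under 0.05. Without WT 2 or without WT 3, 0 collagens were higher at the adjusted threshold of edgeR, beside 0.0421% and 1.24% of all tested genes, while 18 and 22 were higher at an unadjusted p under 0.05. Col28a1 did not pass as lower in any of these 3 fits. Without the batch term 1 collagen was higher when WT 1 was left out (Col6a6), 0 when WT 2 was left out (22 at an unadjusted p under 0.05) and 1 when WT 3 was left out (Col23a1), beside 1.06%, 0% and 0.842% of all tested genes. Shares of all tested genes at an unadjusted p under 0.05 are not given for these fits, so their unadjusted counts lack a reference. With all libraries and the batch term, 20 collagens were higher and 3 lower at that threshold, beside 2742 and 3119 of 16632 tested genes. With all libraries and no batch term these counts were 25 and 2, beside 4152 and 3888. The fold changes kept their direction more widely than their calls. All 3 cKO libraries were above WT 2 and WT 3 in the same 23 collagens that were above all 3 WT libraries, beside 28.2% of all tested genes, and the log2 fold change with the batch term stayed above 0 in 37 of 42 without WT 1.

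Within batch 2 alone, which compares cKO 1 with the 3 WT libraries, 14 collagens were higher and 3 were lower (Col18a1, Col22a1 and Col28a1), beside 11.1% and 14% of all tested genes. Its single cKO library gives no spread of its own, so this fit assumes that cKO mice vary as the WT mice do. Both fits called 9 collagens, of which Col4a2, Col4a4, Col6a6, Col9a3, Col13a1, Col15a1, Col23a1 and Col24a1 were higher and Col28a1 was lower. Another 2, Col25a1 and Col27a1, passed only with the batch term and 11 only without it, which left 20 that passed in neither fit. The plot of fold changes in both models gives all 42 with their intervals.

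**Figure D2:**
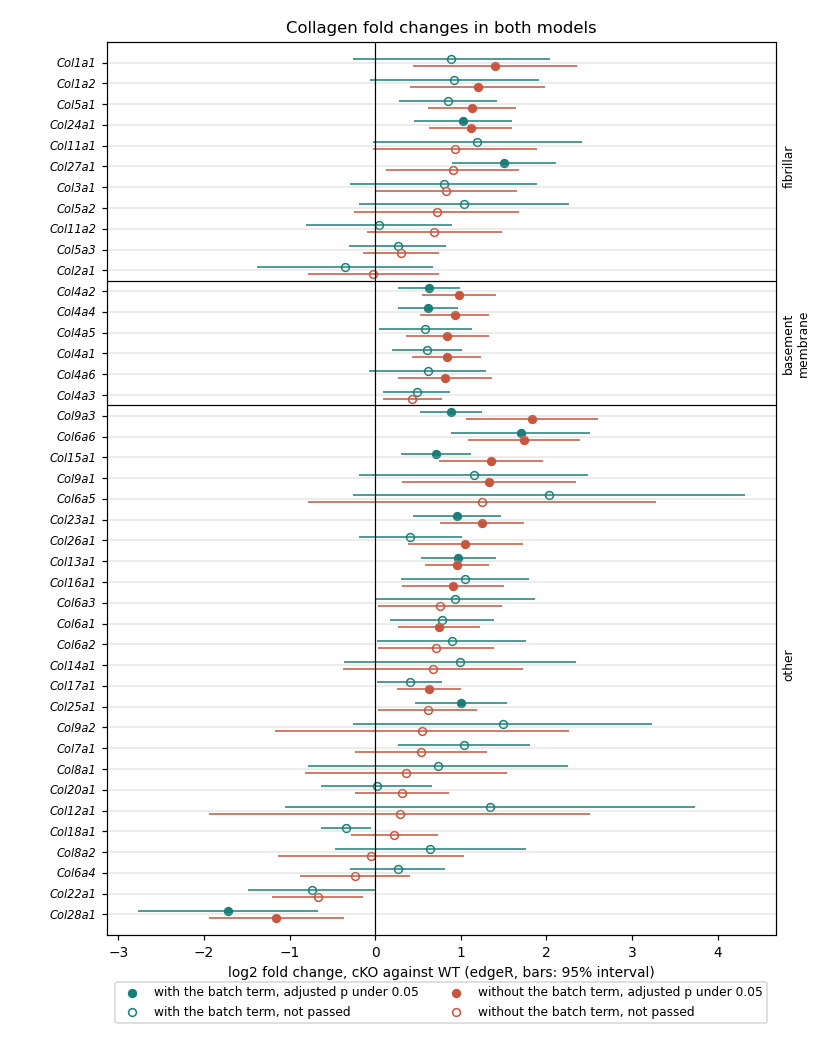
Log2 fold change of each collagen gene in cKO against WT with its 95% interval, with and without the batch term (edgeR quasi-likelihood test); filled points have an adjusted p under 0.05. Of 42 genes, 38 lie above 0 with the batch term and 37 without it, and the intervals of Col6a5, Col12a1 and Col9a2 are the widest.

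Per kilobase of transcript, which allows genes to be compared, the mean WT level was highest for Col3a1 (238 CPM per kilobase), Col1a2 (209) and Col1a1 (150), followed by Col18a1 (110), Col4a1 (90.3), Col6a1 (78.4) and Col4a2 (70.8). In cKO the mean levels were 479 CPM per kilobase for Col1a2, 424 for Col3a1 and 393 for Col1a1, with Col4a1 (161) and Col4a2 (139) next. The WT levels of Col3a1, Col1a2 and Col1a1 varied between 2.38-fold and 2.74-fold among libraries, so their order in WT is within that spread. At the lower end stood Col9a1 (0.204), Col8a1 (0.445), Col24a1 (0.4995) and Col2a1 (0.508 CPM per kilobase in WT). Col3a1, Col1a2 and Col1a1 together took 32.8%, 48.8% and 49.4% of the collagen CPM of the WT libraries and 49.9%, 49.97% and 54.6% of that of the cKO libraries. WT 1 was thus low in these genes also as a share of its own collagen.

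The start regions of 4 collagen genes are shown here because these genes are among the most abundant of the fibrillar and basement membrane classes and, for the Col4a1 and Col4a2 pair, because both genes start from one stretch of DNA on opposite strands. The windows run from 250 bases before to 50 bases after the annotated start (RefSeq, GRCm38.p6), 5′ to 3′ on the strand of the gene. Capitals mark the letters CCAAT and TATAAA and GGGCGG and TGTGTG, each on either strand, so that ATTGG and TTTATA and CCGCCC and CACACA are capitals too. The windows are chr8:11312777-11313076 (minus strand) for Col4a1, chr8:11312555-11312854 (plus strand) for Col4a2, chr6:4505368-4505667 (plus strand) for Col1a2 and chr1:45311288-45311587 (plus strand) for Col3a1.
Col4a1: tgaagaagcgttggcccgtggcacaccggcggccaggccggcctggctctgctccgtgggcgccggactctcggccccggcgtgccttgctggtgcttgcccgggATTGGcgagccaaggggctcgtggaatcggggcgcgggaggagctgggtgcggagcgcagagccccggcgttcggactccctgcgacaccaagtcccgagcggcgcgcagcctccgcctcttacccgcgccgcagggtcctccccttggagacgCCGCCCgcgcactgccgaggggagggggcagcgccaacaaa
Col4a2: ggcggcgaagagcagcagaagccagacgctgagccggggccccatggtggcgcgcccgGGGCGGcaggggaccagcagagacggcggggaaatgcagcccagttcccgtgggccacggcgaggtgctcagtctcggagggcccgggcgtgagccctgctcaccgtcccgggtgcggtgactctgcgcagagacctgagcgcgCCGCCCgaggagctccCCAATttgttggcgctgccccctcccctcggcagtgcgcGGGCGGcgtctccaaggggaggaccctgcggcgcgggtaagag
Col1a2: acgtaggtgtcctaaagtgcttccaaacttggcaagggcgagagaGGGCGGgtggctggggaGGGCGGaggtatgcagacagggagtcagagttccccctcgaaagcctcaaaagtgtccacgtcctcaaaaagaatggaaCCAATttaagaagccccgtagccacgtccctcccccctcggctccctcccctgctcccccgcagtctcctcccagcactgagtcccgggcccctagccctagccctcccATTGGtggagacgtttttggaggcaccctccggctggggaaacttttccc
Col3a1: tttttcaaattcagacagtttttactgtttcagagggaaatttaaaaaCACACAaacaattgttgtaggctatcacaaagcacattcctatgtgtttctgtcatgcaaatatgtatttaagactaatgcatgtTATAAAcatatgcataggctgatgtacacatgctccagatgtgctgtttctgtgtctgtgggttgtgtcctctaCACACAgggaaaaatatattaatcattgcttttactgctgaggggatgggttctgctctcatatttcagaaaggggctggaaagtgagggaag
The Col4a1 and Col4a2 windows share 78 bases. G and C made up 74% of the Col4a1 window, 73.7% of the Col4a2 window, 61% of the Col1a2 window and 37.7% of the Col3a1 window. Col3a1 alone of these 4 windows held TATAAA and TGTGTG (the latter being the DNA form of the UG repeats that TDP-43 is known to bind in RNA), and the other 3 windows held CCAAT and GGGCGG.

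RefSeq windows were found for 33 of the 42 kept collagens, with 36 windows in all since some genes have more than 1 start. GGGCGG, the core of the box bound by Sp factors, was in 63.9% of the collagen windows and in 35.7% of all 32851 windows of the same length. CCAAT was in 36.1% against 37.4%, TATAAA in 11.1% against 13.6% and TGTGTG in 22.2% against 21.1%. These are matches of letters and not measured sites.

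The 6 basement membrane collagens all had every cKO library above every WT library, where 25.7% of all tested genes did. Of the 3 classes this held only here, but it also held for the 4 transmembrane collagens among the other collagens. The summed level of the 6 was 1549, 1659 and 1640 CPM in WT and 2449, 2675 and 3660 CPM in cKO. The WT sums were close together, with WT 1 near the others, and the mean was 1.81 times higher in cKO (1.78 times without WT 1). Of the 6, 2 were higher with the batch term (Col4a2 and Col4a4) and 5 without it, all but Col4a3. The median log2 fold change was 0.61 with the batch term and 0.84 without it.

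Col4a1 and Col4a2 code for the chains of collagen IV found in nearly all basement membranes. Col4a1 was at 581, 595 and 617 CPM in the WT libraries and at 909, 933 and 1347 CPM in the cKO libraries. The groups were well apart, and the log2 fold change was 0.61 ± 0.17 (SE; adjusted p = 0.0547) with the batch term and 0.83 ± 0.17 (adjusted p = 0.0157) without it. Col4a2 was at 471, 468 and 494 CPM in WT and at 736, 878 and 1200 CPM in cKO. It rose in both fits, by 0.62 ± 0.15 on the log2 scale (SE; adjusted p = 0.0385) with the batch term and by 0.97 ± 0.19 (adjusted p = 0.0138) without it. The pair lies on chromosome 8 (GRCm39), with Col4a1 at 11248423 to 11362826 on the minus strand and Col4a2 at 11362471 to 11499287 on the plus strand, and their annotated genes overlap by 356 bases. Whether reads were assigned by strand is not given in the sources used here, so reads of that overlap are uncertain.

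Col4a3, Col4a4 and Col4a5 code for the chains best known from the glomerular basement membrane of the kidney, which are lost or altered in Alport syndrome. Col4a3 was at 163, 176 and 155 CPM in WT and at 230, 183 and 253 CPM in cKO, with cKO 2 just above the highest WT library. It was the one gene of the class that passed in neither fit (log2 fold change 0.49 ± 0.17, SE, adjusted p = 0.0865, with the batch term; 0.43 ± 0.15, adjusted p = 0.0547, without it). Col4a4 was at 272, 323 and 277 CPM in WT and at 446, 536 and 675 CPM in cKO. It rose in both fits, by 0.62 ± 0.15 on the log2 scale (SE; adjusted p = 0.0360) and by 0.93 ± 0.17 (adjusted p = 0.0135). Col4a4 (minus strand) and Col4a3 (plus strand) lie head to head on chromosome 1 and overlap by 159 annotated bases, so the same limit on strand holds for them.

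Col4a5 and Col4a6 lie head to head on chromosome X with 1281 bases between their starts, and their chains join in the basement membranes around smooth muscle. Col4a5 was at 49.7, 73.1 and 76.2 CPM in WT and at 99.4, 114 and 144 CPM in cKO. Col4a6 was at 13.6, 24.1 and 20.0 CPM in WT and at 29.4, 30.7 and 41.0 CPM in cKO. Both were lowest in WT 1, and neither overlapped between groups. Both rose without the batch term, Col4a5 by 0.84 ± 0.21 on the log2 scale (SE; adjusted p = 0.0231) and Col4a6 by 0.81 ± 0.24 (adjusted p = 0.0358), and neither passed with it (log2 fold changes 0.58 and 0.61, adjusted p = 0.121 and 0.177).

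The 11 fibrillar collagens were the most abundant class and the one of the 3 classes in which WT 1 differed most from the other WT libraries by summed level. The sum was 1919, 4415 and 4773 CPM in WT and 6754, 6718 and 10430 CPM in cKO. The mean was 2.15 times higher in cKO, or 1.73 times higher without WT 1, and all cKO sums were above all WT sums either way. With the batch term 2 of 11 were higher (Col24a1 and Col27a1) and without it 4 (Col1a1, Col1a2, Col5a1 and Col24a1). The median log2 fold change was 0.89 with the batch term and 0.91 without it. The plot of class sums sets the 3 classes side by side.

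**Figure D3:**
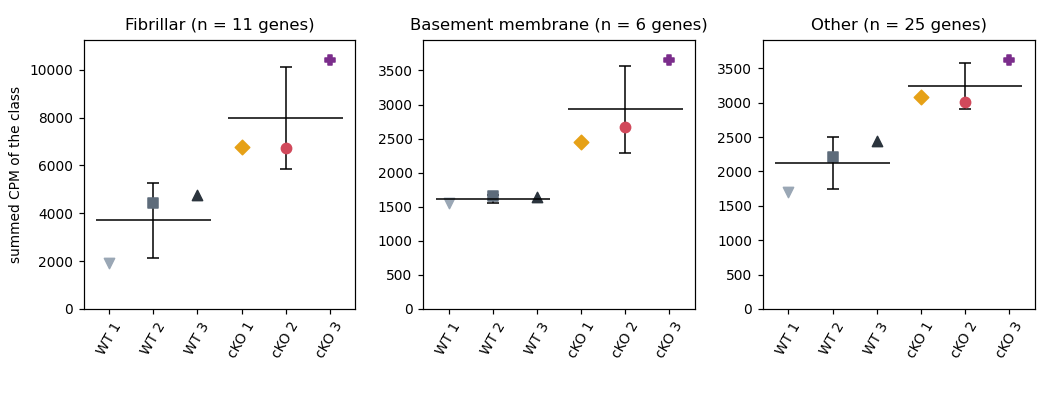
Summed CPM of the 11 fibrillar, 6 basement membrane and 25 other collagen genes in each library; horizontal lines are group means and bars are ± 1 SD over the 3 mice. The basement membrane sums of the WT libraries lie between 1549 and 1659 CPM, whereas the fibrillar sum of WT 1, 1919 CPM, is well under the 4415 and 4773 CPM of WT 2 and WT 3.

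Col1a1 and Col1a2 code for the chains of type I collagen, the main fibril-forming collagen of most connective tissue. Col1a1 was at 418, 1096 and 1147 CPM in WT and at 1640, 2051 and 3307 CPM in cKO. Col1a2 was at 628, 1281 and 1496 CPM in WT and at 2153, 2169 and 3487 CPM in cKO. In both genes the cKO libraries were above all WT libraries. Without the batch term Col1a1 rose by 1.40 ± 0.41 on the log2 scale (SE; adjusted p = 0.0368) and Col1a2 by 1.198 ± 0.34 (adjusted p = 0.0329). With it the log2 fold changes were 0.89 ± 0.49 (adjusted p = 0.236) and 0.92 ± 0.42 (adjusted p = 0.164). Leaving out WT 1 gave 1.06 and 0.91 without the batch term, and neither passed (adjusted p = 0.0741 and 0.0744).

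Col3a1, the type III collagen of soft and elastic tissues, was at 648, 1663 and 1735 CPM in WT and at 2343, 1981 and 2874 CPM in cKO. Its groups did not overlap, but it passed in neither fit (log2 fold change 0.80 ± 0.47, SE, adjusted p = 0.260, with the batch term; 0.83 ± 0.35, adjusted p = 0.10, without it). Between WT 1 and the other WT libraries Col3a1 differed by 2.62-fold, which is more than the ratio of the group means.

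Type V collagen sits inside type I fibrils and sets their number and width. Col5a1 was at 126, 186 and 185 CPM in WT and at 299, 327 and 464 CPM in cKO, and it rose without the batch term by 1.13 ± 0.22 on the log2 scale (SE; adjusted p = 0.0143; 0.85 ± 0.25, adjusted p = 0.0551, with it). Col5a2 was at 45.4, 110 and 138 CPM in WT and at 200, 99.4 and 183 CPM in cKO, so that cKO 2 lay between the WT libraries. Col5a3 was at 22.5, 28.2 and 27.9 CPM in WT and at 31.4, 25.7 and 39.8 CPM in cKO, again with cKO 2 within the WT range. Neither Col5a2 nor Col5a3 passed in either fit, with log2 fold changes of 1.04 and 0.26 with the batch term and 0.72 and 0.30 without it.

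Type XI and type II collagens are the fibrillar collagens of cartilage. Col11a1 was at 6.08, 16.5 and 18.3 CPM in WT and at 31.0, 17.3 and 29.4 CPM in cKO. Col11a2 was at 8.34, 10.9 and 5.58 CPM in WT and at 8.48, 18.1 and 13.2 CPM in cKO. Col2a1, the main collagen of cartilage, was at 2.54, 3.19 and 2.22 CPM in WT and at 2.07, 3.76 and 1.98 CPM in cKO. In all 3 genes the groups overlapped and neither fit passed. Col2a1 was the one fibrillar collagen with a log2 fold change below 0 in both fits (-0.35 with the batch term and -0.02 without it).

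Col24a1 and Col27a1 code for minor fibrillar collagens known from developing bone and cartilage. Col24a1 was at 3.40, 4.23 and 3.08 CPM in WT and at 7.20, 7.82 and 7.95 CPM in cKO, with a narrow spread in both groups. It rose in both fits, by 1.02 ± 0.25 on the log2 scale (SE; adjusted p = 0.0360) and by 1.11 ± 0.21 (adjusted p = 0.0132). Col27a1 was at 9.55, 16.4 and 14.9 CPM in WT and at 38.4, 17.8 and 20.0 CPM in cKO. It rose with the batch term, which rests on cKO 1, by 1.504 ± 0.26 on the log2 scale (SE; adjusted p = 0.0186), and did not pass without it (0.91 ± 0.33, adjusted p = 0.0693). The cKO 2 library was just above the highest WT library.

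The 25 other collagens summed to 1704, 2207 and 2446 CPM in WT and to 3089, 3016 and 3627 CPM in cKO, 1.53 times higher by the means (1.39 times without WT 1). With the batch term 6 were higher and 1 lower, and without it 10 and 1. The median log2 fold changes were 0.89 and 0.68.

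Among the 2 multiplexins, which lie where basement membranes meet the matrix around them, Col15a1 was at 116.9, 119 and 128 CPM in WT and at 198, 300 and 430 CPM in cKO. It rose in both fits, by 0.71 ± 0.18 on the log2 scale (SE; adjusted p = 0.0388) and by 1.35 ± 0.26 (adjusted p = 0.0139). Col18a1, the source of the fragment endostatin, behaved otherwise, at 744, 713 and 725 CPM in WT and at 574, 1085 and 886 CPM in cKO. Its cKO 1 library was below all WT libraries and cKO 2 and cKO 3 were above all of them. The log2 fold change was -0.34 ± 0.12 (SE; adjusted p = 0.0977) with the batch term and 0.22 ± 0.22 (adjusted p = 0.441) without it. Col18a1 was singled out after its values were seen.

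The 4 transmembrane collagens all had every cKO library above every WT library. Col13a1, which helps form neuromuscular junctions, was at 16.6, 13.7 and 16.8 CPM in WT and at 30.7, 25.9 and 34.3 CPM in cKO. Col23a1 was at 13.9, 15.5 and 18.5 CPM in WT and at 30.8, 34.1 and 48.6 CPM in cKO. Both rose in both fits, Col13a1 by 0.97 ± 0.19 on the log2 scale (SE; adjusted p = 0.0222) and Col23a1 by 0.95 ± 0.22 (adjusted p = 0.0329) with the batch term, and by 0.95 and 1.25 without it (adjusted p = 0.0117 for each). Col17a1, a part of hemidesmosomes in skin, was at 9.76, 9.95 and 10.3 CPM in WT and at 13.2, 15.8 and 17.2 CPM in cKO. Col25a1, whose fragment is found in amyloid plaques, was at 5.42, 5.59 and 5.34 CPM in WT and at 10.9, 5.97 and 8.05 CPM in cKO, with cKO 2 close to the WT libraries. Col17a1 rose without the batch term (0.63 ± 0.16, SE, adjusted p = 0.0262) and not with it (0.40 ± 0.16, adjusted p = 0.122), and Col25a1 rose with it (1.00 ± 0.23, adjusted p = 0.0318) and not without it (0.61 ± 0.25, adjusted p = 0.0884).

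Collagen VI forms beaded filaments near basement membranes. Col6a1, one of its common chains, was at 323, 454 and 530 CPM in WT and at 746, 607 and 836 CPM in cKO. It rose without the batch term by 0.75 ± 0.21 on the log2 scale (SE; adjusted p = 0.0318) and did not pass with it (0.78 ± 0.26, adjusted p = 0.0798). The other common chains, Col6a2 and Col6a3, had similar log2 fold changes of 0.89 and 0.94 with the batch term, with adjusted p of 0.133 and 0.141, and their groups overlapped by cKO 2. Col6a6, an alternative chain, was at 6.65, 13.1 and 11.7 CPM in WT and at 33.8, 27.6 and 42.9 CPM in cKO. With the batch term it had the largest log2 fold change among the 10 collagens that rose, 1.70 ± 0.35 (SE; adjusted p = 0.0250), and it rose by 1.74 ± 0.28 (adjusted p = 0.0110) without it. Col6a6 also passed without WT 1 in both fits (1.45 and 1.49 on the log2 scale, adjusted p = 0.0387 and 0.0395).

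Col6a4 and Col6a5 lie beside Col6a6 on the minus strand of chromosome 9, with Col6a6 at 105564724 to 105705561, Col6a5 at 105733270 to 105837858 and Col6a4 at 105866653 to 105973990 (GRCm39). Col6a4 was at 41.6, 49.8 and 56.6 CPM in WT and at 59.1, 26.7 and 40.2 CPM in cKO, and Col6a5 was at 57.5, 13.2 and 30 CPM in cKO beside the WT values given above. Neither neighbour passed in either fit, and in both the groups overlapped. These 2 were singled out after their values were seen.

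The FACIT collagens do not form fibrils alone and attach to the surface of others. Col9a3, a chain of the type IX collagen of cartilage, was at 7.33, 8.52 and 8.92 CPM in WT and at 15.2, 35.0 and 37.6 CPM in cKO. It rose in both fits, by 0.89 ± 0.15 on the log2 scale (SE; adjusted p = 0.0192) with the batch term and by 1.83 ± 0.33 (adjusted p = 0.0126) without it. Col9a1 was near the filter, at 0.390, 1.204 and 0.748 CPM in WT and at 1.65, 1.99 and 1.94 CPM in cKO. With WT 1 under the 0.5 CPM of the filter, it met that filter only with cKO libraries counted. It passed the threshold by a narrow margin without the batch term (1.33 ± 0.44, adjusted p = 0.04995) and not with it (adjusted p = 0.193). Col9a2, the remaining chain, overlapped between groups, at 6.81, 30.2 and 47.8 CPM in WT and at 79.02, 17.5 and 27.1 CPM in cKO. Col16a1 was at 38.9, 73.7 and 78.9 CPM in WT and at 132, 107 and 119 CPM in cKO, and rose without the batch term (0.91 ± 0.26, SE, adjusted p = 0.0332) but did not pass with it (1.05 ± 0.32, adjusted p = 0.0633).

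Col22a1, a FACIT of muscle to tendon junctions, was 1 of the 2 collagens with every cKO library below every WT library. It was at 25.9, 26.6 and 22.4 CPM in WT and at 15.0, 20.9 and 11.4 CPM in cKO, and passed in neither fit (log2 fold change -0.74 ± 0.32, SE, adjusted p = 0.141, with the batch term; -0.67 ± 0.23, adjusted p = 0.0551, without it). Col28a1, a collagen with von Willebrand factor domains known from nerve basement membranes, was the other, at 2.204, 3.74 and 2.46 CPM in WT and at 0.875, 1.55 and 1.43 CPM in cKO. It fell in both fits, by 1.72 on the log2 scale (SE 0.45; adjusted p = 0.0436) with the batch term and by 1.16 (SE 0.34; adjusted p = 0.0367) without it. Without WT 1 its adjusted p was 0.0660 and 0.0739.

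Col26a1, a collagen first described in testis and ovary, was at 17.0, 12.0 and 14.3 CPM in WT and at 19.1, 28.2 and 42.0 CPM in cKO. It rose without the batch term by 1.05 ± 0.29 on the log2 scale (SE; adjusted p = 0.0304) and did not pass with it (0.41 ± 0.26, adjusted p = 0.291). Its cKO 1 library was close to WT 1. The collagens not yet given values are Col7a1 of anchoring fibrils, Col8a1 and Col8a2 of short-chain networks and the FACITs Col14a1 and Col20a1. All 5 overlapped between groups and passed in neither fit, and their log2 fold changes ran from 0.02 to 1.04 with the batch term and from -0.04 to 0.68 without it. Col12a1 also overlapped, at 39.6, 5.32 and 12.5 CPM in cKO.

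Many collagen chains can be secreted together with partner chains, though not all need a partner. The ratio of such chains within a library was compared between groups for 11 pairs, as log2 of the count ratio. With 3 libraries a side the exact two-sided permutation test cannot give a p under 0.1, and adjusted over the 11 pairs no p was under 0.733. Col4a3 to Col4a4 was the one pair whose groups did not overlap. Its log2 ratio was -0.74, -0.88 and -0.84 in WT and -0.95, -1.55 and -1.42 in cKO, a difference of -0.49 between means (exact p = 0.1). The cKO 1 library, the only one of the WT batch, was the closest to WT.

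Among the other pairs the groups overlapped. Col4a1 to Col4a2 had a log2 ratio of 0.32 ± 0.02 (SD, n = 3) in WT and 0.19 ± 0.11 in cKO (exact p = 0.2, permutation test). Col1a1 to Col1a2 stood at -0.40 ± 0.18 (SD, n = 3) and -0.18 ± 0.18 (exact p = 0.3, permutation test). Col6a1 to Col6a2 differed by 0.004 between groups, at 0.41 ± 0.21 (SD, n = 3) in WT and 0.42 ± 0.15 in cKO, although the WT libraries spanned 1.64-fold in Col6a1 and 2.15-fold in Col6a2. Col9a2 to Col9a3 was the least steady, from -0.11 to 2.43 in WT and from -1.0 to 2.39 in cKO. The plot of chain ratios shows all 11 pairs.

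**Figure D4:**
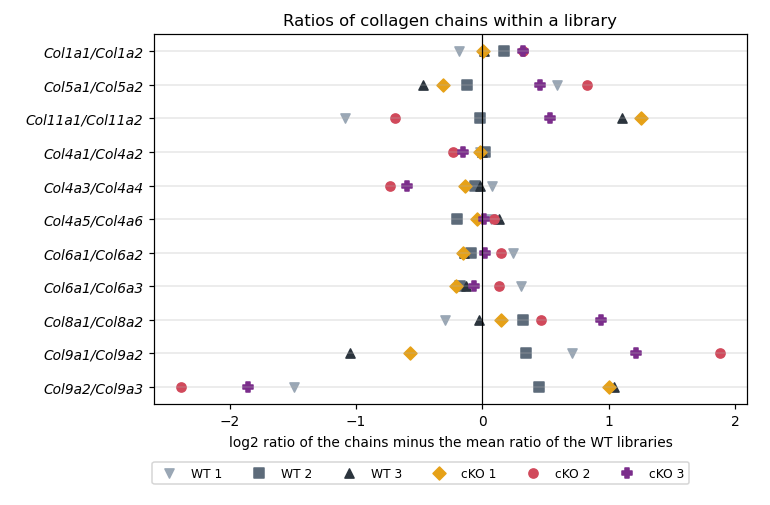
Log2 ratio of 2 collagen chains within each library, minus the mean ratio of the 3 WT libraries, for 11 chain pairs. The ratio of Col4a3 to Col4a4 lies below all WT libraries in the 3 cKO libraries, the groups of the other 10 pairs overlap, and the pairs with Col9a2 and Col11a1 scatter the most.

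The genes that make, export, process, cross-link, bind or sense collagen were counted from 6 lists with 62 tested genes. With the batch term 10 were higher and 0 were lower (3 lower at an unadjusted p under 0.05 in edgeR), with a median log2 fold change of 0.47, where 6.91% of all tested genes were higher and 9.24% lower. Without it 21 were higher and 2 lower, with a median of 0.42, where the shares of all tested genes were 17.1% and 16.7%. Single lists hold 7 to 15 genes, and several of their counts are near these shares. Of 15 genes of proline and lysine modification 2 were higher with the batch term and 5 without it. The 2 were Crtap and P3h3, parts of prolyl hydroxylase complexes. Crtap was at 41.9, 35.6 and 50.4 CPM in WT and at 79.9, 75.1 and 104 CPM in cKO (log2 fold change 0.91, adjusted p = 0.0344, with the batch term and 1.02, adjusted p = 0.0124, without it), and P3h3 was at 20.2, 23.2 and 27.1 CPM in WT and at 43.7, 39.5 and 57.9 CPM in cKO (0.90, adjusted p = 0.0392, and 1.00, adjusted p = 0.0134). P3h4 and P3h2 had log2 fold changes of 0.47 and 0.80 with the batch term and did not pass (adjusted p = 0.0640 and 0.111), and rose by 0.75 and 0.82 without it (adjusted p = 0.0171 and 0.0362).

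Of 10 genes of folding and export 1 was higher with the batch term, and 4 were higher and 2 lower without it. Sec24d, a coat protein of the vesicles that carry procollagen, was at 32.7, 37.4 and 38.2 CPM in WT and at 53.6, 48.1 and 61.6 CPM in cKO, and rose in both fits (0.57 on the log2 scale, adjusted p = 0.0481, and 0.59, adjusted p = 0.0206). Serpinh1, the collagen chaperone HSP47, was at 187, 217 and 260 CPM in WT and at 362, 273 and 377 CPM in cKO, without overlap (0.71, adjusted p = 0.0574 with the batch term; 0.61, adjusted p = 0.0356 without it). Creb3l1, a transcription factor of collagen secretion, and Fkbp10, a prolyl isomerase, also passed only without it (1.04 and 0.87, adjusted p = 0.0144 and 0.0165). The 2 genes that fell without the batch term were Tmem38b, an ion channel of the endoplasmic reticulum, at 29.3, 31.8 and 32.7 CPM in WT and at 23.8, 21.5 and 18.8 CPM in cKO (log2 fold change -0.55, adjusted p = 0.0246), and Sec23a, a vesicle coat protein, at 116, 121 and 126 CPM in WT and at 97.4, 77.3 and 89.4 CPM in cKO (-0.46, adjusted p = 0.0297). Both had log2 fold changes below 0 with the batch term too, -0.39 and -0.31, and did not pass (adjusted p = 0.0902 and 0.0948).

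Propeptide processing, which frees collagen to form fibrils, had 3 of 9 genes higher with the batch term and 6 without it, and none lower. Bmp1, the procollagen C-proteinase, was at 86.7, 91.3 and 92.1 CPM in WT and at 170, 134 and 187 CPM in cKO (0.92, adjusted p = 0.0192, with the batch term and 0.86, adjusted p = 0.0117, without it). Pcolce, which enhances that proteinase, was at 94.8, 88.7 and 107 CPM in WT and at 150, 234 and 302 CPM in cKO (0.63, adjusted p = 0.0393, and 1.24, adjusted p = 0.0144), and Tll2, a related proteinase, was at 4.75, 3.98 and 4.31 CPM in WT and at 8.60, 7.28 and 6.89 CPM in cKO (0.99, adjusted p = 0.0280, and 0.81, adjusted p = 0.0220). Furin, a protease that activates many proproteins, had a log2 fold change of 0.27 with the batch term (adjusted p = 0.104) and rose by 1.12 without it (adjusted p = 0.0258).

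None of 7 cross-linking genes passed in either fit of edgeR, and 2 and 3 of them were higher at an unadjusted p under 0.05 with and without the batch term. Loxl3 and Tgm2 had the smallest p, with log2 fold changes of 0.56 and 0.22 (adjusted p = 0.113 and 0.125). Lox, the main lysyl oxidase, was at 14.7, 32.1 and 43.02 CPM in WT and at 55.7, 18.5 and 36.7 CPM in cKO, with the same low WT 1 value as the fibrillar collagens. Of 10 genes of proteins that bind fibrils 1 was higher with the batch term and 2 without it, and 0 were lower in either fit. Tnxb, the matrix protein tenascin-X, rose in both fits, from 32.1, 53.4 and 49.4 CPM in WT to 102, 138 and 232 CPM in cKO (1.181, adjusted p = 0.0460, with the batch term and 1.81, adjusted p = 0.0126, without it). Dcn, decorin, was at 272, 369 and 372 CPM in WT and at 541, 266 and 383 CPM in cKO and passed in neither fit, nor did Prelp and Lum. The log2 fold changes of Dcn, Prelp and Lum with the batch term were 0.68, -0.61 and 1.36.

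Among 11 receptors 3 were higher with the batch term and 4 without it, and none was lower. Ddr1, a receptor tyrosine kinase for collagen, was at 233, 219 and 239 CPM in WT and at 319, 572 and 567 CPM in cKO (0.47, adjusted p = 0.0209, and 1.077, adjusted p = 0.0157, without the term). Adgrg1, a receptor for type III collagen, was at 247, 236 and 280 CPM in WT and at 393, 765 and 860 CPM in cKO (0.63, adjusted p = 0.0213, and 1.41, adjusted p = 0.0143, without the term). Ddr2 was at 48.0, 58.2 and 46.2 CPM in WT and at 83.9, 52.0 and 72.1 CPM in cKO, where cKO 2 lay within the WT range, and its call was lost without the batch term (0.72, adjusted p = 0.0452 with it and 0.45, adjusted p = 0.103 without it). Itga10 passed only without the batch term (1.17, adjusted p = 0.0178).

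Markers of several testis cell types differed between the same libraries, and 0 of the markers were at 0 in a library. Over all tested genes, 6.91% were higher and 9.24% lower with the batch term, and 17.1% and 16.7% without it. Of 20 Sertoli cell markers 11 were higher and 1 was lower with the batch term (11 and 0 without it), and their summed level was 8613 to 10070 CPM in WT and 12870 to 19490 CPM in cKO. Of 20 markers of early spermatocytes all 20 were lower in both fits, with sums of 2879 to 3865 CPM in WT and 184 to 681 CPM in cKO, and of 8 markers of differentiating spermatogonia 4 were lower and 0 higher with the batch term (0 at an unadjusted p under 0.05), and 7 were lower without it. Of 12 markers of undifferentiated spermatogonia 1 was higher and 0 lower with the batch term, and 4 were higher and 1 lower without it. Their sums overlapped, at 346 to 366 CPM in WT and 316 to 480 CPM in cKO. Sycp1, a synaptonemal complex protein of spermatocytes, was at 527, 694 and 530 CPM in WT and at 116, 27.4 and 11.8 CPM in cKO.

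Of the cells outside the tubule, peritubular myoid cells had 0 of 10 markers past the threshold with the batch term (2 higher at an unadjusted p under 0.05) and 1 higher and 1 lower without it, with sums of 1478 to 1751 CPM in WT and 1536 to 1873 CPM in cKO, which overlapped. Acta2, the smooth muscle actin of myoid cells, was at 445, 485 and 551 CPM in WT and at 501, 389 and 480 CPM in cKO. Of 11 markers of interstitial mesenchyme 2 were higher with the batch term and 3 without it. Their sums were 1011 to 1275 CPM in WT and 1311 to 1852 CPM in cKO. WT 1 was the lowest WT library in 10 of the 11 and in 10 of the 10 myoid markers, beside 35.3% of all tested genes. It was the lowest in 4 of 10 endothelial, 1 of 10 Leydig cell and 0 of 10 macrophage markers. Endothelial markers had 1 of 10 higher with the batch term and 4 without it, with sums of 184 to 196 CPM in WT and 223 to 325 CPM in cKO. Macrophage markers had 0 of 10 higher with the batch term (2 at an unadjusted p under 0.05) and 5 without it, and their sums, 172 to 205 CPM in WT and 227 to 390 CPM in cKO, did not overlap. Leydig cell markers had 1 of 10 higher in each fit, and their sums overlapped, with WT 1 the highest WT library (1136 CPM, against 645 and 783 CPM). Several of these counts, such as 1 of 10 with the batch term, are near the shares of all tested genes given above. The part of the marker shifts in the collagen levels was not tested.

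**Figure D5:**
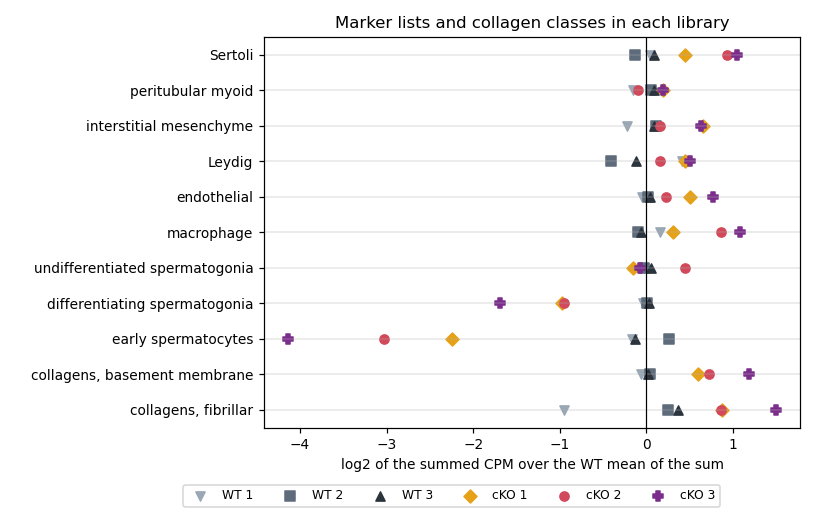
Summed CPM of 9 lists of cell type markers and of 2 collagen classes in each library, as log2 over the mean of the 3 WT sums. Early spermatocyte sums lie far to the left of 0 in the 3 cKO libraries, Sertoli cell sums lie to the right, peritubular myoid sums overlap between groups, and WT 1 is low in the fibrillar collagens.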

How the data were processed

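RNA of whole testes (3 WT and 3 Tardbp cKO mice, PND12) was sequenced from 1 stranded poly(A) library per mouse. For each gene the authors deposited expected counts, which are not whole numbers. They come from Salmon 1.2.0 against NCBI mouse transcripts, with GRCm39 as decoy and bias correction, followed by tximport. The deposited log2 values are TMM-normalized log2 CPM of the genes that the authors kept. Recomputed here with a prior count of 2 they differed by at most 5.15e-14. CPM in the text are 2 to the power of these values, so low levels are slightly overstated. The submitters' processing notes name bcl2fastq 2.20, R 4.0.4, edgeR 3.32.1 and limma 3.46.0.

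Expected counts were rounded, and 16632 genes with at least 0.5 CPM in at least 3 libraries entered the quasi-likelihood test of edgeR 4.0.16 (R 4.3.3), with TMM factors and a model of batch and genotype, then without batch. P values were adjusted over all tested genes (Benjamini-Hochberg, threshold 0.05). Alternatives were DESeq2 1.42.0, limma-trend (limma 3.58.1), other scalings and filters, a replicate block and leaving out each library. The edgeR fits were also run on simulated counts with known fold changes, and the outcome is not given here. Given with all 6 values are the Col4 and fibrillar genes and other collagens that passed in either fit. From each list of other genes, up to 4 with the smallest p with the batch term are named, some by fold change alone. Col6a4, Col6a5, Col9a2, Col12a1, Col18a1, Col22a1, Tmem38b, Sec23a, Acta2 and Sycp1 were added after their values were seen. Members and lists were chosen with earlier results of these data known. Gene positions and longest transcripts come from GENCODE vM39 and promoter windows from RefSeq. Python 3.11.15, scipy 1.17.1 and matplotlib 3.10.9 did the rest.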

Additional observations from a re-analysis of the deposited data

How the results depend on the processing

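Across these alternatives no collagen that passed with the batch term reversed its direction. Every fit that holds the batch term rests on cKO 1 against WT libraries, so this was largely fixed by the design. With the batch term the number of collagens higher in cKO was 10, and it became 19 without the term, 21 with no filter on low counts and 25 with the replicate block, beside 17.1%, 5.31% and 3.84% of all genes tested in those fits. DESeq2, DESeq2 size factors, library size only and limma-trend gave 10 to 14, beside 6.39% to 10.2% of all genes tested. The deposited log2 values, the stricter filter and the kept genes gave 10, beside 6.13% to 7.65%. Leaving out 1 library gave 0 to 13, beside 0.0421% to 10.6%. The number lower was 1, beside 9.24%. It became 0 with the replicate block, beside 3.48%, and 0 to 3 with 1 library left out, beside 0.0301% to 14.3%. Without the batch term 19 were higher and 1 lower, beside 17.1% and 16.7%. With 1 library left out these ran from 0 to 22 and from 0 to 3, beside 0% to 30.1% and 0.00601% to 31.7%. The replicate block without the batch term gave 18 and 2, beside 11.6% and 14.1%. The count of collagens whose groups did not overlap was 25, 23 with library size only and 25 to 34 with 1 library left out, beside 52.8% of all tested genes and 54.7% to 76% with 1 library left out. cKO 1 could not be left out of the fit with the batch term. With the replicate block and the batch term, the genotype difference rests on cKO 1 against WT 1 alone. WT 1 was low in many collagens, and that fit brings in no other comparison of genotype. The median log2 fold change of the fibrillar collagens was 1.78 there and 0.89 with the batch term only. The cause of the shifts between fits was not tested. Same-numbered WT and cKO libraries deviated from their group means with correlations of -0.097, -0.063 and 0.0077. Differently numbered ones had correlations from -0.132 to 0.180. With 3 libraries a group and the cKO libraries split by batch, these values cannot decide whether the replicate numbers pair the samples. For 29 collagens (Col4, fibrillar and those that passed in either fit), 383 of 464 log2 fold changes under alternatives to the fit with the batch term stayed on their side of the threshold, 46 passed it and 35 fell short of it. Most of these 464 values re-estimate the same comparison of cKO 1 with WT libraries and are not independent checks. With 3 libraries a group, of which 1 cKO library shares a batch with WT, the spread between mice limits the precision of these fold changes, and depth adds to it for rare collagens such as Col9a1, Col8a1 and Col28a1.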
